A study of Homo sapiens with 24 samples.

Results

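The endoplasmic reticulum (ER) folding, sensing and disposal genes followed here are 32 genes, taken by gene name from a table of 58735 genes. They comprise 17 chaperones and folding enzymes, 11 genes of ER-associated degradation (ERAD), the stress sensors ERN1 and ATF6 with the effector XBP1, and the translocon subunit SEC61B. Each was measured by RNA sequencing in 24 libraries of 2 B cell precursor leukaemia lines, Sem and Nalm6, with 3 libraries in each of 8 groups. In either line the groups were the combination of 10 µM ibrutinib with asparaginase, asparaginase alone, 10 µM ibrutinib alone, and untreated cells. Drug exposure lasted 24 h, and a harvest time for untreated cells is not given in the sources used here. For asparaginase the labels disagree, giving 1 IU/ml as a sample characteristic but 0.5 IU/ml where the treatment is described. Ibrutinib is a covalent inhibitor of the kinase BTK, and asparaginase is an enzyme that removes asparagine from the medium. Each line is a single established culture model, so a difference between Sem and Nalm6 is a difference between these lines only. The labels do not say whether the 3 libraries of a group came from separate cultures, so each p-value is set against library-to-library spread, and that spread may be only technical.

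Secreted and membrane proteins enter the ER through the translocon and are folded there by chaperones such as HSPA5 (BiP), by the lectins calnexin and calreticulin, and by protein disulfide isomerases. Proteins that fail to fold are trimmed by EDEM mannosidases, passed by the SEL1L and SYVN1 ubiquitin ligase complex and the derlins to the cytosol, and degraded by the proteasome, a route called ERAD. When unfolded proteins accumulate, the sensors IRE1 (encoded by ERN1), ATF6 and PERK start the unfolded protein response, in which spliced XBP1 and cleaved ATF6 raise both chaperone and ERAD genes, while PERK acts through the translation factor eIF2 and ATF4. Amino acid shortage reaches ATF4 through another eIF2 kinase, GCN2, without a folding fault.

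The deposited FPKM (fragments scaled by gene length and library size) had lost the decimal point of every value of 1 or more (21.2% of all values), and it was restored from the whole number of reads each value must hold. The libraries held 15.03 M to 18.14 M reads in genes (median 16.21 M), at which 1 read in a transcript of 1 kb is worth 0.0601 FPKM. Within its group 1 library stood apart from the others in 4 groups, namely untreated Nalm6 replicate 2, Nalm6 asparaginase replicate 1, Nalm6 combination replicate 1 and Sem ibrutinib replicate 1. By the rule used, both its correlations on log2(FPKM + 1) lay more than 0.001 below that of the remaining pair. This margin is small, and Sem ibrutinib replicate 1 had 0.985 and 0.9847 against 0.9862. Markers of B cell precursors were at 1 FPKM or more in all 12 libraries for 8 of 10 genes in Sem, where DNTT and RAG1 stayed under it, and for 10 of 10 in Nalm6. Of 10 plasma cell markers, a cell type rich in ER genes, 3 in Sem and 4 in Nalm6 were at 1 FPKM or more, while PRDM1, JCHAIN and TNFRSF17 stayed under it in every library. The summed plasma cell markers were 85.4 to 89.4 FPKM with the combination, 44.9 to 47 with asparaginase, 74.7 to 75.7 with ibrutinib and 49.3 to 51.5 in untreated cells of Sem. In Nalm6 the same sums were 79.1 to 95.6, 99 to 105, 113 to 116 and 120 to 124 FPKM in that order, and their part in the results was not tested. Of 8 myeloid and 6 T cell markers, 1 myeloid gene in each line and TRAC in Sem reached 1 FPKM in all libraries. CD3D, CD3E, CD14 and MPO reached it in none. In Sem TRAC was the only T cell marker at 1 FPKM or more. The T cell markers there summed to 85.9 to 88.2 FPKM with the combination and 85.5 to 90.1 FPKM with asparaginase. Their sums were 70.5 to 78.4 FPKM with ibrutinib and 89.4 to 99.4 FPKM in untreated Sem.

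Levels per length spread over a wide range. In untreated cells calreticulin (CALR) was the most abundant member in both lines, at 355 ± 14.9 FPKM in Sem and 372 ± 14.4 FPKM in Nalm6 (SD, n = 3 each). PDIA6, HSP90B1 (the ER form of HSP90), CANX (calnexin) and HSPA5 were at 121 to 161 FPKM in Sem and 140 to 161 FPKM in Nalm6, and the means of PDIA6 and HSP90B1 differed by less than their spread in both lines. The IRE1 gene ERN1 was the lowest at 0.565 ± 0.132 FPKM in Sem and 0.775 ± 0.11 FPKM in Nalm6 (SD, n = 3 each). Among ERAD genes, UBE2J1, an ER-anchored ubiquitin-conjugating enzyme, was the most abundant, with 39.1 FPKM in Sem and 74.5 FPKM in Nalm6, and EDEM1 had 18.8 FPKM in Sem and 37.2 FPKM in Nalm6. In hg38, the build named in the submitters' processing notes, the table places HSPA5 (ENSG00000044574) on chromosome 9 from 125234853 to 125241330, EDEM1 (ENSG00000134109) on chromosome 3 from 5187646 to 5219957, HERPUD1 (ENSG00000051108) on chromosome 16 from 56932048 to 56944863 and DERL3 (ENSG00000099958) on chromosome 22 from 23834503 to 23839128. All 32 genes passed the filter of at least 1 FPKM in 3 libraries in both lines, ERN1 only through treated groups. In a limma fit over 24 libraries (a call is an adjusted p under 0.05 by Benjamini-Hochberg over all tested genes), 4 members were higher and 20 lower in untreated Sem than in untreated Nalm6. For all 15116 genes tested the shares were 34.0% higher and 31.8% lower. By role, 2 chaperones were higher and 10 lower in Sem, and 2 ERAD genes were higher and 7 lower. ERO1B, an oxidase that recharges disulfide isomerases, differed most among the chaperones with a Sem minus Nalm6 difference of -0.97 ± 0.077 on the log2(FPKM + 1) scale (SE), and EDEM1 among ERAD genes with -0.95 ± 0.046. DERL1, a derlin of the retrotranslocation channel, was higher in Sem by 0.49 ± 0.046.

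**Figure D1:**
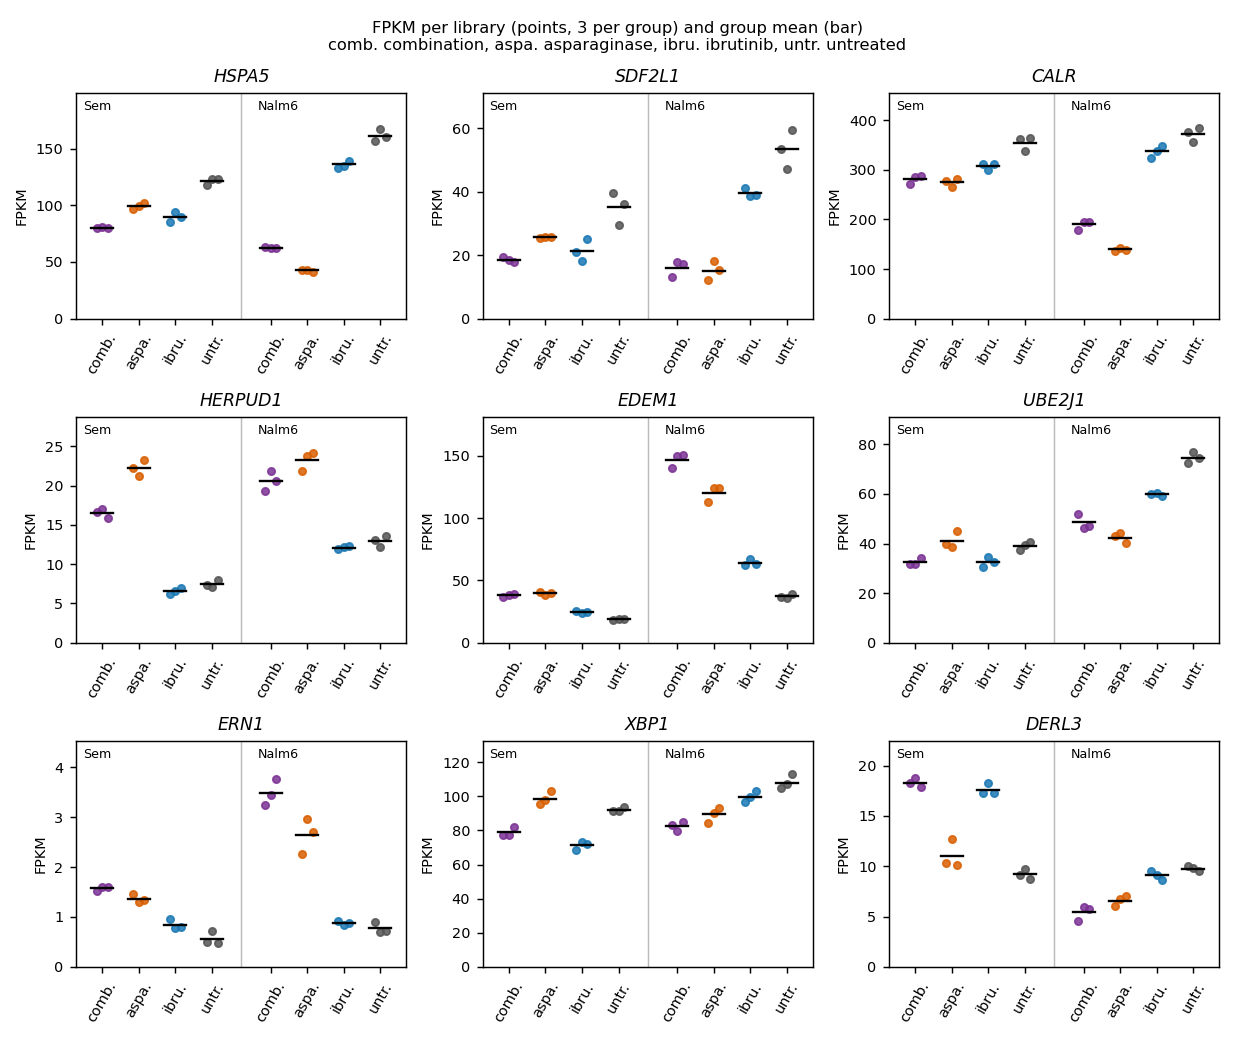
FPKM of 9 members in every library (points, 3 per group) with the group mean (bar), on linear axes from 0, for Sem on the left and Nalm6 on the right of each panel. HSPA5 of Nalm6 lies at 41.4 to 43.3 FPKM with asparaginase and at 157 to 167 FPKM in untreated cells, while HERPUD1 and EDEM1 are above their untreated libraries with asparaginase in both lines.

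Chaperone and ERAD promoters are known to share binding sites for spliced XBP1 and cleaved ATF6, so the windows of 4 genes are shown, chosen for the size of their asparaginase changes in Nalm6 or Sem. HSPA5 and SDF2L1 are the chaperone genes with the lowest changes in Nalm6, and HERPUD1 and EDEM1 are the ERAD genes with the highest changes in Sem and in Nalm6. Sequences are RefSeq's (GRCh38.p14), run 5′ to 3′ on the gene's strand, and end before the gene starts of RefSeq and of the deposited table. Capitals mark matches to an ER stress element or to the ATF4 element on either strand.
HSPA5: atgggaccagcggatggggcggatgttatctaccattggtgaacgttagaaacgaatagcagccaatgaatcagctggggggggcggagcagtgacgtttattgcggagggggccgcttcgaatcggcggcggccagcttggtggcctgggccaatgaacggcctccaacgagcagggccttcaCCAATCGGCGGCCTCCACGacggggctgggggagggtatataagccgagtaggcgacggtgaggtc
SDF2L1: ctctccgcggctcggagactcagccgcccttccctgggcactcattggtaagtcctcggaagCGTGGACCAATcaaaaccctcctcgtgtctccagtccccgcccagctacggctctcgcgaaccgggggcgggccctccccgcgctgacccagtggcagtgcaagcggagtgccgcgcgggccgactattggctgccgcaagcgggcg
HERPUD1: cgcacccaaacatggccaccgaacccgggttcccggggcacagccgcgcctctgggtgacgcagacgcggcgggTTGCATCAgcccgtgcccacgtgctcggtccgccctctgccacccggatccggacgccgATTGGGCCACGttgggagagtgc
EDEM1: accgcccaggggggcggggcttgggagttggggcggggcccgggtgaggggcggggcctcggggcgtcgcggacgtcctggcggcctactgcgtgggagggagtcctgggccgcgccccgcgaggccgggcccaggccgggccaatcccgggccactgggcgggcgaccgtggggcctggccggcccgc
The regions are chr9:125241344-125241593 (minus strand), chr22:21642052-21642260, chr16:56931892-56932047 and chr3:5187457-5187645 (plus strand for these genes). RefSeq windows of 300 bases (250 before and 50 after the start) were found for 29 of the 32 members, without PDIA3, DERL1 and DERL3. The ER stress element ERSE (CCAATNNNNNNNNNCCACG, both strands) was found in 7 of the 29, namely HSPA5, HSP90B1, CALR, CANX, ERO1B, CRELD2 and XBP1, and in 22 of 27305 promoters (0.0806%). By role it was in 6 of 16 chaperone windows and 0 of 9 ERAD windows. ERSE-II (ATTGG and CCACG with 1 base N between them, both strands) was in HYOU1, SDF2L1 and HERPUD1 and in 15 promoters in all (0.0549%). The UPR element (TGACGTGG, both strands) was in HYOU1, where it overlaps an ERSE-II, and in UBE2J1, against 0.795% of promoters. The ATF4 element (TGATGNAA, both strands) was in HERPUD1 only among the members, at positions -176 to -169 from the start, against 3.67% of promoters. In the HSPA5 window the ERSE lies at -66 to -48 from the start, in SDF2L1 the ERSE-II lies at -188 to -178 on the other strand, and in HERPUD1 it lies at -117 to -107. EDEM1 held none of these 4 motifs but held a CCAAT box (CCAAT, both strands, also the start of every ERSE), which 23 of the 29 members and 35.7% of promoters held. A match describes these letters in this window and is not evidence of binding. ERSE and ERSE-II were known ER stress elements beforehand. The counts by member and role therefore only describe the windows, and no test compared them.

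Asparaginase lowered most chaperone genes in Nalm6 and fewer of them in Sem. In Sem 1 of 17 chaperones and folding enzymes was called higher and 6 lower (median log2 change -0.06), where 11.4% of 13417 tested genes were higher and 15.1% lower. In Nalm6 1 was higher and 15 lower (median -0.79), where 28.2% of 13237 genes were higher and 28.1% lower. Among called genes, 43.0% were higher in Sem and 50.2% in Nalm6, and under TPM rescaling 70.0% in Sem and 66.5% in Nalm6. The median over all tested genes was 0.00 in Sem and 0.02 in Nalm6. In bulk RNA, fewer cells of one kind and less RNA per cell cannot be told apart. The Sem chaperone median turned to 0.02 under TPM rescaling, where the median of all genes moved to 0.07. Under TPM 4 chaperones were higher and 6 lower, and under quantile normalization 5 were higher and 6 lower. The Nalm6 counts were 1 higher and 13 lower under TPM and 1 higher and 14 lower under quantile normalization. The mitochondrial share of reads in Nalm6 was 4.30% to 4.66% with the combination, 4.50% to 4.81% with asparaginase and 3.58% to 3.81% with ibrutinib, against 3.58% to 3.91% in untreated cells. In Sem it was 2.36% to 2.68% with the combination, 2.35% to 2.60% with asparaginase and 2.39% to 2.54% with ibrutinib, against 2.61% to 2.81% in untreated cells. Its part in the changes of the members was not tested.

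HSPA5, the BiP chaperone that also holds the stress sensors inactive, had 96.3, 99.6 and 102 FPKM in Sem with asparaginase, against 118, 123 and 123 FPKM in untreated Sem. Nalm6 had 42.6, 43.3 and 41.4 FPKM with asparaginase, against 157, 167 and 160 FPKM in untreated cells. The groups did not overlap in either line, and the log2 change was -0.29 ± 0.039 (SE; adjusted p = 0.00034) in Sem and -1.90 ± 0.039 (adjusted p = 3.3e-10) in Nalm6. In Nalm6 it was the 8th lowest change of 13237 genes, and SDF2L1 was the 13th lowest. SDF2L1, a partner of ER J-domain proteins, had 25.4, 25.8 and 25.8 FPKM in Sem with asparaginase, against 39.6, 29.5 and 36.2 FPKM in untreated Sem. In Nalm6 the values were 12.2, 18 and 15.3 FPKM with asparaginase, against 53.5, 47.1 and 59.5 FPKM in untreated cells. Its treated libraries all lay below the untreated ones in both lines. The change was -0.43 ± 0.11 in Sem (adjusted p = 0.017) and -1.76 ± 0.14 in Nalm6 (adjusted p = 1.8e-06). The Sem call was lost without untreated replicate 1 (adjusted p = 0.068), without untreated replicate 3 (0.058), without asparaginase replicate 1 (0.05) or with no filter on low genes (0.051).

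Calreticulin, the lectin that folds glycoproteins and buffers calcium, had 278, 265 and 282 FPKM in Sem with asparaginase, against 363, 338 and 364 FPKM in untreated Sem. The Nalm6 libraries held 137, 143 and 139 FPKM with asparaginase, against 377, 356 and 384 FPKM in untreated cells. It fell in both lines, with a log2 change of -0.37 ± 0.041 in Sem and -1.41 ± 0.051 in Nalm6. HSP90B1 had 125, 122 and 129 FPKM in Sem with asparaginase, against 154, 169 and 159 FPKM in untreated Sem. In Nalm6 it had 66.4, 55.4 and 53.9 FPKM with asparaginase, against 144, 177 and 147 FPKM in untreated cells. It fell by 0.35 ± 0.048 in Sem and by 1.40 ± 0.11 in Nalm6. MANF, a secreted ER-resident factor that binds BiP, had 26.3, 25.8 and 29.6 FPKM in Sem with asparaginase, against 33.3, 30.8 and 35.1 FPKM in untreated Sem. Nalm6 had 13.1, 15.3 and 13.1 FPKM with asparaginase, against 36.9, 40.9 and 39.9 FPKM in untreated cells, and no treated library of either line reached the lowest untreated one. The disulfide isomerase PDIA4 was called in Nalm6 alone, with a change of -1.02 ± 0.051 there and 0.00 ± 0.042 in Sem, and the difference between the lines of 1.02 ± 0.064 passed its own test (adjusted p = 1.1e-09). The remaining chaperones called lower in Nalm6 lay between -1.13 (PDIA3) and -0.14 (DNAJC3), and for DNAJC3, which inhibits eIF2 kinases, the change was 0.00 under TPM rescaling and the adjusted p 0.18 without the libraries that stood apart. Leaving out untreated replicate 1 or 2, asparaginase replicate 1 or 3, combination replicate 2 or any 1 ibrutinib library also ended the DNAJC3 call. The chaperone HYOU1 (-0.33 in Nalm6) and the oxidase ERO1A (-0.15) missed the threshold under quantile normalization, at -0.06 and -0.03, and ERO1A also under TPM rescaling (-0.01) and without untreated replicate 3 or asparaginase replicate 2.

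DNAJB9, a J-domain chaperone known to hand IRE1 to BiP and to bind ERAD clients, rose in both lines. It had 6.72, 5.32 and 5.93 FPKM in Sem with asparaginase, against 3.78, 3.58 and 4.79 FPKM in untreated Sem. In Nalm6 the values were 7.42, 6.12 and 6.71 FPKM with asparaginase, against 5.36, 5.34 and 5.04 FPKM in untreated cells. The log2 change was 0.47 ± 0.12 in Sem (adjusted p = 0.013) and 0.31 ± 0.081 in Nalm6 (adjusted p = 0.0073). Without Sem asparaginase replicate 1 the Sem value was 0.40 with an adjusted p of 0.052.

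**Figure D2:**
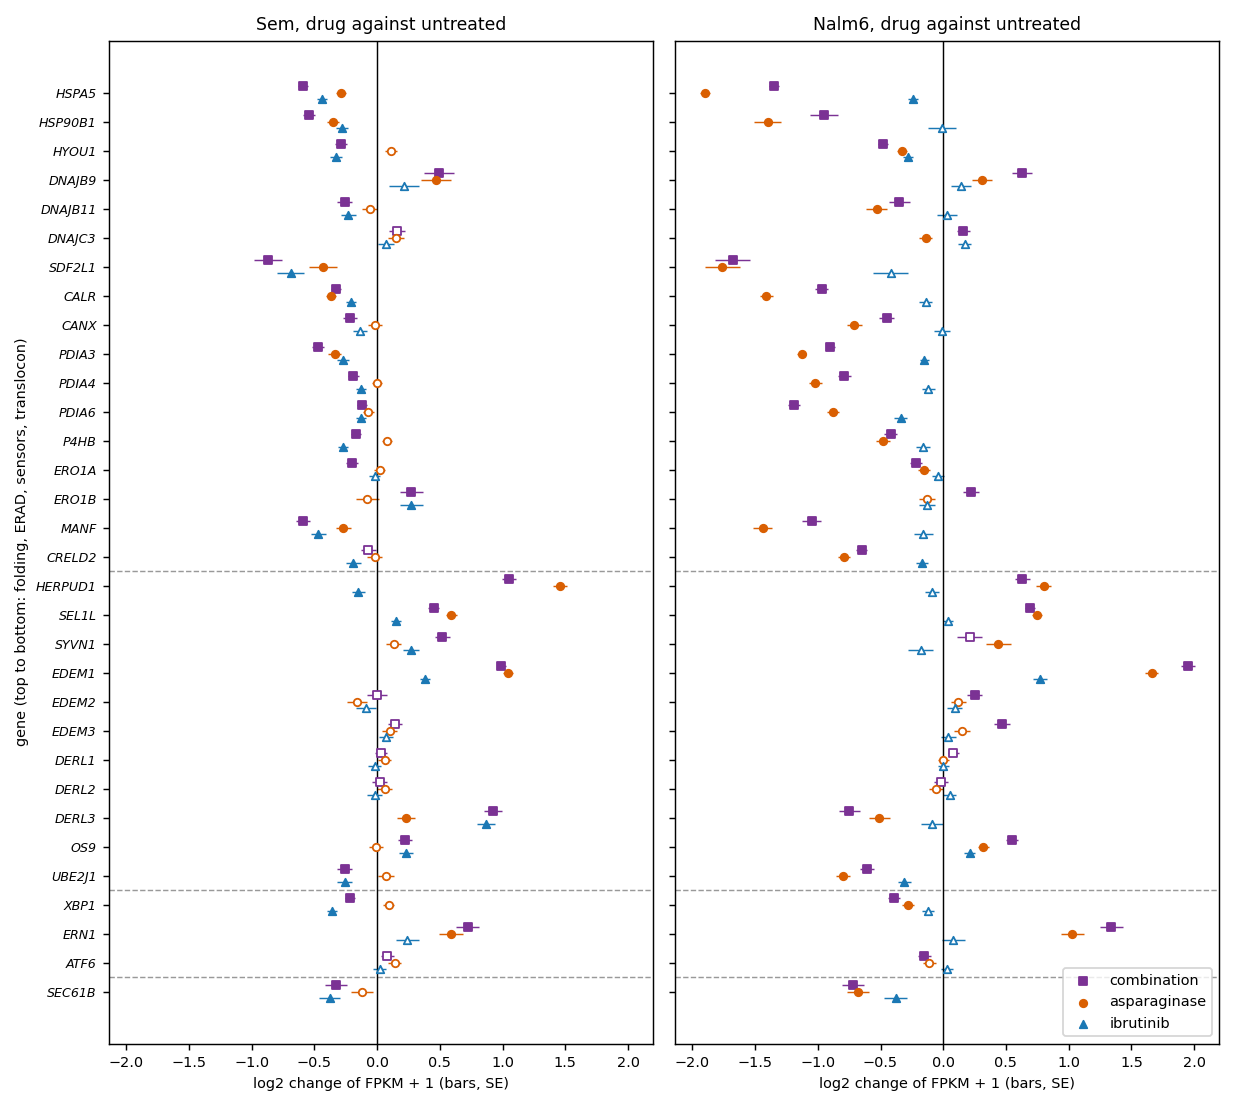
Log2 change of FPKM + 1 against untreated cells (x axis, bars SE) for all 32 members (y axis, by role), Sem left and Nalm6 right, for the combination, asparaginase and ibrutinib. Filled symbols passed an adjusted p of 0.05 and open ones did not; HSPA5 at -1.90 and EDEM1 at 1.66 mark the ends for asparaginase in Nalm6.

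With asparaginase 4 of 11 ERAD genes were called higher and 0 lower in Sem (median log2 change 0.10), where 11.4% of all genes were higher and 15.1% lower. In Nalm6 5 were higher and 2 lower (median 0.15), where 28.2% of all genes were higher and 28.1% lower. Under TPM rescaling 7 were higher and 0 lower in Sem, and 8 were higher and 2 lower in Nalm6. That rescaling also shifted all genes upward, to 2673 higher and 1148 lower of 13417 in Sem. In Nalm6 it gave 5070 higher and 2553 lower of 13237 genes. HERPUD1, an ER membrane protein that gathers the ERAD complex, had 22.2, 21.2 and 23.3 FPKM in Sem with asparaginase, against 7.3, 7.03 and 8.02 FPKM in untreated Sem. The Nalm6 libraries held 21.9, 23.7 and 24.1 FPKM with asparaginase, against 13.1, 12.2 and 13.6 FPKM in untreated cells. The treated libraries of both lines sat at about one level while the untreated levels differed. The change was 1.46 ± 0.055 in Sem (adjusted p = 1.9e-08) and 0.80 ± 0.058 in Nalm6 (adjusted p = 9.5e-07). EDEM1, a mannosidase-like protein that extracts misfolded glycoproteins, had 40.6, 38.6 and 40 FPKM in Sem with asparaginase, against 18, 19.2 and 19.1 FPKM in untreated Sem. In Nalm6 it had 113, 124 and 124 FPKM with asparaginase, against 36.8, 35.8 and 38.9 FPKM in untreated cells. It rose by 1.04 ± 0.039 in Sem and by 1.66 ± 0.054 in Nalm6, with no overlap in either line. SEL1L, the adaptor of the SYVN1 ligase, had 14.4, 13.7 and 14.2 FPKM in Sem with asparaginase, against 8.69, 9.73 and 8.84 FPKM in untreated Sem. Nalm6 had 24.2, 23.1 and 22.6 FPKM with asparaginase, against 13.8, 13.3 and 13.4 FPKM in untreated cells. The change was 0.59 ± 0.043 in Sem and 0.75 ± 0.041 in Nalm6.

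The ERAD genes called lower in Nalm6 were UBE2J1 and DERL3. UBE2J1 had 40, 38.6 and 44.9 FPKM in Sem with asparaginase, against 37.2, 39.5 and 40.6 FPKM in untreated Sem, and the groups overlapped (change 0.07 ± 0.062, adjusted p = 0.45). In Nalm6 the values were 43.1, 44.1 and 40.1 FPKM with asparaginase, against 72.3, 76.9 and 74.3 FPKM in untreated cells, a change of -0.80 ± 0.054 (adjusted p = 5.4e-07). DERL3, a derlin typical of secretory cells, had 10.3, 12.7 and 10.1 FPKM in Sem with asparaginase, against 9.16, 9.69 and 8.76 FPKM in untreated Sem. The Nalm6 libraries held 6, 6.74 and 6.99 FPKM with asparaginase, against 9.99, 9.78 and 9.52 FPKM in untreated cells. It thus moved in opposite directions, with 0.23 ± 0.071 in Sem (adjusted p = 0.032) and -0.51 ± 0.085 in Nalm6 (adjusted p = 0.00043). The Sem call was lost without untreated replicate 1 (adjusted p = 0.075), without untreated replicate 3 (0.11), without asparaginase replicate 2 (0.068, change 0.14) or with no filter (0.074). The ligase SYVN1 (0.44) and the lectin OS9 (0.32), which recognises trimmed glycans, were the other ERAD genes called in Nalm6. EDEM2, EDEM3, DERL1 and DERL2 lay between -0.16 and 0.15 in both lines and missed the threshold. In Nalm6 levels also shifted with gene length, with slopes of 0.023 to 0.048 log2 per doubling in the asparaginase libraries and -0.058 to -0.013 in the untreated ones, among genes with a mean of 10 FPKM or more. In Sem these slopes were 0.002 to 0.013 with the combination, -0.002 to 0.019 with asparaginase and 0.001 to 0.027 with ibrutinib, against -0.055 to -0.002 in untreated cells. The median gene length was 5496 bases for the ERAD genes, 4695 for the chaperones and 3920 for all tested genes. With slopes on length and GC removed, 6 ERAD genes were higher and 2 lower in Nalm6, and 1 chaperone was higher and 14 lower.

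**Figure D3:**
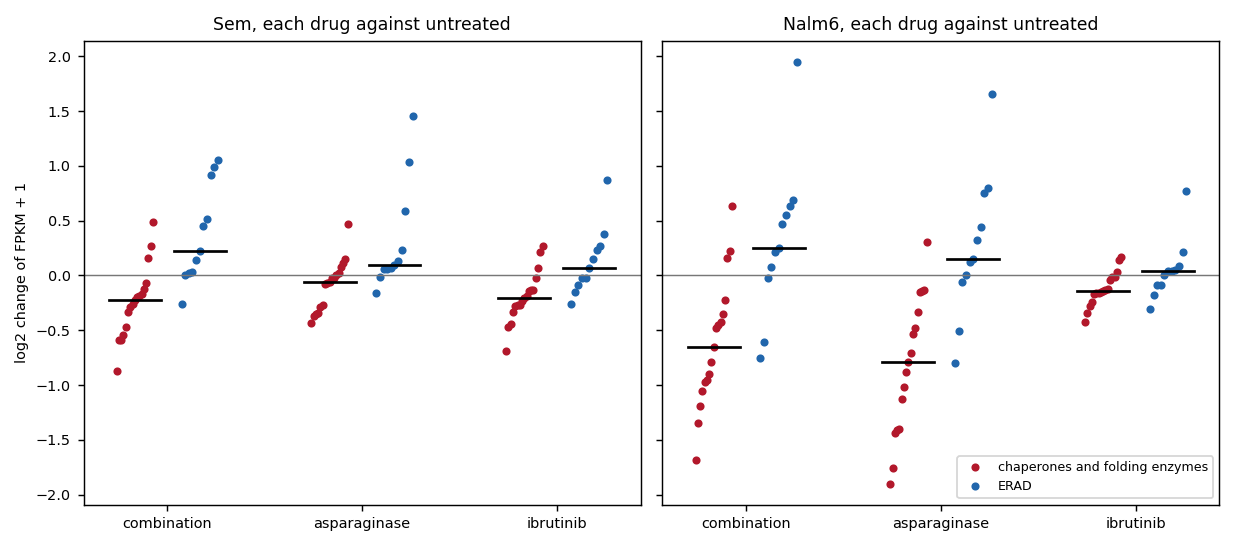
Log2 change of FPKM + 1 against untreated cells for the 17 chaperones and folding enzymes (red) and the 11 ERAD genes (blue), with group medians (bars), Sem left and Nalm6 right. In each of the 6 comparisons the chaperone median lies below 0 and the ERAD median above it, and for asparaginase in Nalm6 they lie at -0.79 and 0.15. The Sem asparaginase chaperone median turns to 0.02 under TPM rescaling, where that of all genes is 0.07. The ibrutinib ERAD medians turn to -0.04 in Sem and -0.02 in Nalm6 with the length and GC correction.

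Of the sensors, ERN1 transcript was higher with asparaginase in both lines and ATF6 passed the test in neither. All ERN1 libraries of untreated and ibrutinib-treated cells were under 1 FPKM, so ERN1 passed the filter on low genes only through the asparaginase and combination groups where it is high, and its p-values are given as a description. With no filter both asparaginase changes were of the same size and called. ERN1 had 1.46, 1.29 and 1.33 FPKM in Sem with asparaginase, against 0.502, 0.717 and 0.477 FPKM in untreated Sem. In Nalm6 it had 2.26, 2.96 and 2.7 FPKM with asparaginase, against 0.902, 0.706 and 0.719 FPKM in untreated cells. The treated libraries were all above the untreated ones, with a change of 0.59 ± 0.094 in Sem (adjusted p = 0.00098) and 1.03 ± 0.09 in Nalm6 (adjusted p = 3.4e-06), which the added 1 FPKM shrinks at these low levels. These values come from 231 to 240 reads in Sem and 412 to 560 reads in Nalm6 with asparaginase, against 85 to 115 reads in untreated Sem and 118 to 165 reads in untreated Nalm6. The deposited table runs roughly by level, and the mean of ERN1 was 0.42 of the median of its row neighbours, the lowest among the members and below the 1st percentile of tested genes (0.669). XBP1, counted over spliced and unspliced forms together, had 95.4, 97.6 and 103 FPKM in Sem with asparaginase, against 91.6, 91.3 and 93.6 FPKM in untreated Sem (change 0.09 ± 0.04, adjusted p = 0.11). Nalm6 had 84.6, 90.3 and 93.3 FPKM with asparaginase, against 105, 107 and 113 FPKM in untreated cells, with a change of -0.28 ± 0.049 that turned sign to 0.05 and was not called under quantile normalization. ATF6 had 8.47, 7.9 and 8.6 FPKM in Sem with asparaginase, against 7.11, 7.66 and 7.62 FPKM in untreated Sem, and missed the threshold (0.14 ± 0.052, adjusted p = 0.071). In Nalm6 the values were 7.85, 7.91 and 8.12 FPKM with asparaginase, against 8.4, 8.96 and 8.7 FPKM in untreated cells (change -0.11 ± 0.05, adjusted p = 0.079). Transcript levels do not show the splicing of XBP1 or the cleavage of ATF6. SEC61B, a subunit of the translocon, had 41.9, 39.7 and 43.8 FPKM in Sem with asparaginase, against 47.8, 38.7 and 50.3 FPKM in untreated Sem, and the groups overlapped. The Nalm6 libraries held 27.8, 34.4 and 32.3 FPKM with asparaginase, against 48.7, 53.7 and 50.7 FPKM in untreated cells, a fall of 0.68 ± 0.09.

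With ibrutinib alone more chaperones passed the test in Sem than in Nalm6, although the test of the difference between the lines called only 4 of them. In Sem 1 chaperone was called higher and 12 lower (median -0.21), and 5 ERAD genes were higher and 2 lower (median 0.07), where 20.3% of genes were higher and 21.3% lower. In Nalm6 0 chaperones were higher and 5 lower (median -0.14), and 2 ERAD genes were higher and 1 lower (median 0.04), where 4.99% of genes were higher and 7.46% lower. Of the genes called, 48.8% were higher in Sem and 40.1% in Nalm6, and under TPM rescaling 65.9% in Sem and 68.6% in Nalm6. With the length and GC correction the ERAD medians were -0.04 in Sem and -0.02 in Nalm6. The Sem chaperones called lower numbered 8 under TPM rescaling and 7 under quantile normalization. HSPA5 had 85.5, 93.8 and 89.2 FPKM in Sem with ibrutinib and 133, 135 and 139 FPKM in Nalm6 with ibrutinib, below every untreated library of the same line. The change was -0.44 ± 0.039 in Sem and -0.24 ± 0.039 in Nalm6, and the Nalm6 call was lost under quantile normalization (-0.13, adjusted p = 0.074). SDF2L1 had 21, 18.1 and 25.2 FPKM in Sem with ibrutinib (change -0.69 ± 0.11), and 41.2, 38.6 and 38.9 FPKM in Nalm6 with ibrutinib (change -0.42 ± 0.14, adjusted p = 0.079). EDEM1 rose in both lines, to 25.5, 23.8 and 24.9 FPKM in Sem (0.38 ± 0.039) and to 62.2, 66.9 and 63.2 FPKM in Nalm6 (0.77 ± 0.054). HERPUD1, unlike EDEM1, had a change of -0.15 ± 0.055 in Sem and -0.09 ± 0.058 in Nalm6. The Sem value (adjusted p = 0.041) was not called under TPM rescaling (-0.08, adjusted p = 0.2) or without ibrutinib replicate 1, which stood apart (-0.12, adjusted p = 0.14). Leaving out untreated replicate 1 or 3, ibrutinib replicate 2, asparaginase replicate 1 or combination replicate 1 ended the Sem call too. With no filter it was not called either (-0.15, adjusted p = 0.078).

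DERL3 had the largest difference between the lines among the members with ibrutinib. It had 17.3, 18.3 and 17.3 FPKM in Sem with ibrutinib, against 9.16, 9.69 and 8.76 FPKM in untreated Sem, a rise of 0.87 ± 0.071 (adjusted p = 5.1e-06). In Nalm6 it had 9.53, 9.13 and 8.65 FPKM with ibrutinib, against 9.99, 9.78 and 9.52 FPKM in untreated cells, and missed the threshold (-0.09 ± 0.085). XBP1 fell to 68.5, 73.5 and 72.1 FPKM in Sem with ibrutinib, against 91.6, 91.3 and 93.6 FPKM in untreated Sem (-0.36 ± 0.04). Nalm6 had 96.9, 99.5 and 103 FPKM with ibrutinib, a change of -0.12 ± 0.049 that missed the threshold. ERN1 had changes of 0.24 ± 0.094 in Sem and 0.08 ± 0.09 in Nalm6, neither of them called. The Nalm6 ibrutinib count is among the least stable, with 15 members called without the libraries that stood apart, 5 without untreated replicate 3 and 4 under quantile normalization, against 9 with all libraries. In Sem the changes of PDIA4 and PDIA6 (both -0.13) turned sign to 0.05 and were not called under quantile normalization, and the rise of ERO1B (0.27) was not called without ibrutinib replicate 1 (0.18, adjusted p = 0.13). Leaving out untreated replicate 3 or ibrutinib replicate 1 ended the calls of both PDIA4 and PDIA6. Leaving out untreated replicate 1 or 2 or ibrutinib replicate 3 ended that of ERO1B. With no filter PDIA6 (-0.13, adjusted p = 0.054) and ERO1B (0.27, adjusted p = 0.081) were not called.

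With both drugs, against untreated cells, 2 chaperones were called higher and 13 lower in Sem (median -0.22), and 3 were higher and 14 lower in Nalm6 (median -0.65). Of the ERAD genes 6 were higher and 1 lower in Sem (median 0.22), and 6 were higher and 2 lower in Nalm6 (median 0.25). Over all genes 26.6% were higher and 26.3% lower in Sem, and 32.4% were higher and 31.3% lower in Nalm6. Among called genes, 50.3% were higher in Sem and 50.9% in Nalm6, and under TPM rescaling 63.0% in Sem and 64.7% in Nalm6. Under quantile normalization 7 chaperones were lower in Sem and 11 in Nalm6, and CANX (0.03), PDIA4 (0.06), PDIA6 (0.10, adjusted p = 0.0085) and P4HB (0.09) turned sign in Sem. The Nalm6 rise of ERO1B was not called there either (0.16, adjusted p = 0.069). The Nalm6 rise of DNAJC3 was lost with the length and GC correction (0.09, adjusted p = 0.22) and without the libraries that stood apart (0.15, adjusted p = 0.072). Leaving out untreated replicate 3 or combination replicate 1 or 2 ended it too. In Sem 1 chaperone in place of 2 was higher with no filter or with the length and GC correction. HSPA5 had 80.2, 81.1 and 79.5 FPKM in Sem with the combination and 63.4, 62.6 and 62.1 FPKM in Nalm6 with the combination. Its change against untreated cells was -0.59 ± 0.039 in Sem and -1.35 ± 0.039 in Nalm6. EDEM1 reached 37, 38.5 and 39 FPKM in Sem and 140, 150 and 151 FPKM in Nalm6, and rose by 0.99 ± 0.039 in Sem and by 1.95 ± 0.054 in Nalm6. ERN1 reached 1.52, 1.59 and 1.6 FPKM in Sem and 3.25, 3.45 and 3.77 FPKM in Nalm6, with changes of 0.72 ± 0.094 in Sem and 1.34 ± 0.09 in Nalm6 under the same limit of the filter. DERL3 had 18.3, 18.8 and 17.9 FPKM in Sem with the combination (0.92 ± 0.071) and 4.51, 5.95 and 5.77 FPKM in Nalm6 with the combination (-0.75 ± 0.085). XBP1 had 77.1, 77.1 and 82.3 FPKM in Sem and 83, 79.9 and 84.7 FPKM in Nalm6, with changes of -0.22 ± 0.04 in Sem and -0.39 ± 0.049 in Nalm6. Under quantile normalization these were 0.04 in Sem and -0.02 in Nalm6, and neither was called. ATF6 was called in Nalm6 alone (-0.15 ± 0.05, adjusted p = 0.025), and its change was 0.01 under TPM rescaling. That call was also lost without untreated replicate 2 or 3 or combination replicate 2 or 3.

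Between the combination and asparaginase alone, more chaperones were lower in Sem and more were higher in Nalm6. Of the 17, 1 was called higher and 11 lower in the combination than in asparaginase alone in Sem (median -0.19), and 11 were higher and 2 lower in Nalm6 (median 0.23). Over all genes 18.6% were higher and 19.8% lower in Sem, and 9.80% were higher and 12% lower in Nalm6. HSPA5 changed by -0.30 ± 0.039 in Sem (adjusted p = 0.00011) and by 0.55 ± 0.039 in Nalm6 (adjusted p = 1.1e-05), with no overlap of the combination and asparaginase libraries in either line. CALR had 272, 285 and 287 FPKM in Sem with the combination, against 278, 265 and 282 FPKM with asparaginase, and the groups overlapped (0.03 ± 0.041). In Nalm6 the values were 179, 195 and 195 FPKM with the combination, against 137, 143 and 139 FPKM with asparaginase, a rise of 0.44 ± 0.051. MANF fell by 0.32 ± 0.058 in Sem and rose by 0.40 ± 0.075 in Nalm6. PDIA6, a disulfide isomerase, was lower in the combination in Nalm6, with 74.7, 68.4 and 67.5 FPKM in the combination, against 90.2, 85.4 and 86.4 FPKM with asparaginase (-0.31 ± 0.049). Whether this contrast differs between the lines was not tested. Of the ERAD genes 3 were higher and 3 lower in Sem, and 4 were higher and 0 lower in Nalm6. HERPUD1 had 16.6, 17 and 15.9 FPKM in Sem with the combination, against 22.2, 21.2 and 23.3 FPKM with asparaginase, a fall of 0.41 ± 0.055. The Nalm6 libraries held 19.3, 21.8 and 20.6 FPKM with the combination, against 21.9, 23.7 and 24.1 FPKM with asparaginase, and the change missed the threshold (-0.17 ± 0.058, adjusted p = 0.062). UBE2J1 fell by 0.33 ± 0.062 in Sem and rose by 0.19 ± 0.054 in Nalm6, where the call was lost without combination replicate 1 (0.13, adjusted p = 0.069) or asparaginase replicate 3 (0.15, adjusted p = 0.12). In Nalm6 11 members in place of 18 were called without asparaginase replicate 3. The ERN1 call (0.31, adjusted p = 0.033) was lost with no filter (0.31, adjusted p = 0.074) and with a pseudocount of 0.1 (0.40, adjusted p = 0.063). It was also lost with the replicate block (adjusted p = 0.055) and without the libraries that stood apart (0.27, adjusted p = 0.089). Leaving out asparaginase replicate 1 (0.23, adjusted p = 0.11), asparaginase replicate 3 or combination replicate 2 or 3 ended it too. Without the libraries that stood apart 3 ERAD genes were higher and 2 lower in Nalm6, and with slopes on length and GC removed 5 were higher and 4 lower.

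**Figure D4:**
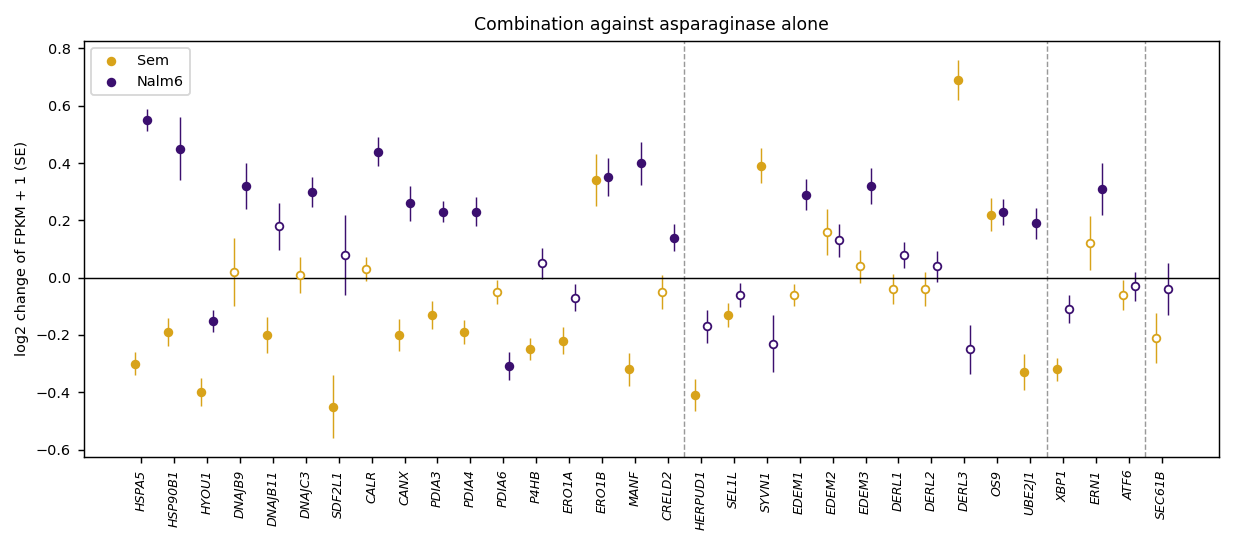
Log2 change of FPKM + 1 in the combination against asparaginase alone (y axis, bars SE) for each member (x axis, by role), Sem and Nalm6 side by side, filled where the adjusted p was under 0.05. HSPA5 lies at -0.30 in Sem and at 0.55 in Nalm6.

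With asparaginase added to ibrutinib, fewer chaperones were called in Sem than in Nalm6, and so were fewer of all genes. Against ibrutinib alone, the combination had 0 chaperones higher and 4 lower in Sem (median -0.05), and 2 higher and 14 lower in Nalm6 (median -0.48). Of the ERAD genes 4 were higher and 0 lower in Sem, and 7 were higher and 2 lower in Nalm6. Over all genes 4.81% were higher and 7.30% lower in Sem, and 29.5% were higher and 27.7% lower in Nalm6. Of the genes called in Nalm6, 51.6% were higher, and 62.1% under TPM rescaling. HERPUD1 had 16.6, 17 and 15.9 FPKM in Sem with the combination, against 6.25, 6.61 and 6.91 FPKM with ibrutinib (1.21 ± 0.055). In Nalm6 it had 19.3, 21.8 and 20.6 FPKM with the combination, against 11.9, 12.2 and 12.3 FPKM with ibrutinib (0.71 ± 0.058). The HSPA5 change was -0.15 ± 0.039 in Sem (adjusted p = 0.024) and -1.11 ± 0.039 in Nalm6, and the Sem call was lost without ibrutinib replicate 2 (adjusted p = 0.086), ibrutinib replicate 3 or any 1 of the combination replicates, and under quantile normalization (0.092). Sem counts here rest on single libraries, since 10 members were called with all of them and 5 or 6 without ibrutinib replicate 2 or 3 or without any 1 of the combination replicates.

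The interaction term asks how far the combination departs from the sum of both single-drug changes on the log2 scale. In Sem 0 chaperones and 1 ERAD gene were called, where 0.760% of genes were above and 0.775% below the sum. For the chaperones of Sem, the limma fit gave no adjusted p under 0.05, 3 had an unadjusted p under 0.05, and voom on recovered reads called 1 above and 1 below. The estimates lay between -0.21 and 0.24. In Nalm6 7 chaperones were called above the sum and 0 below (median 0.31), where 2.99% of genes were above and 2.59% below. Of the genes called, 49.5% were above the sum in Sem and 53.6% in Nalm6, and under TPM rescaling 15.8% in Sem and 37.5% in Nalm6. HSPA5 of Nalm6 lay 0.80 ± 0.055 above the sum (adjusted p = 5.6e-05), CALR 0.58 ± 0.072 and MANF 0.55 ± 0.11. For EDEM1 the combination fell short of the sum in both lines, by an interaction of -0.44 ± 0.056 in Sem (adjusted p = 0.0033) and -0.48 ± 0.077 in Nalm6 (adjusted p = 0.0055). UBE2J1 was the ERAD gene above the sum in Nalm6, at 0.50 ± 0.076. The called members of Nalm6 numbered 14 in place of 9 with slopes on length and GC removed.

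Whether a drug acted differently in Sem and in Nalm6 was tested as the difference of the changes, Sem minus Nalm6. For asparaginase 15 of 17 chaperones had a positive difference and 0 a negative one (median 0.77), meaning a smaller fall or a rise in Sem, where 17.7% of genes had a positive and 15.7% a negative difference. Among called genes, 53.0% were positive, and 41.0% with voom on recovered reads. Of the ERAD genes 3 were positive and 4 negative. HSPA5 differed by 1.61 ± 0.05 (adjusted p = 7.8e-14), SDF2L1 by 1.33 ± 0.19, MANF by 1.17 ± 0.097 and CALR by 1.04 ± 0.062. HERPUD1 rose further in Sem, by 0.66 ± 0.079, and EDEM1 rose less there, with a difference of -0.62 ± 0.065. ERN1 differed by -0.44 ± 0.11, and this missed the threshold under quantile normalization (-0.26, adjusted p = 0.075). As ERN1 passed the filter only through the groups where it is high, its line differences are given as a description. For DNAJB9 the difference was 0.16 ± 0.15 and was not called. For ibrutinib 2 chaperones were positive and 2 negative, and 2 ERAD genes were positive and 1 negative, where 7.56% of genes were positive and 6.09% negative. DERL3 differed by 0.96 ± 0.11 (adjusted p = 8.2e-06) with ibrutinib. For the combination 12 chaperones were positive and 0 negative (median 0.41), and 3 ERAD genes were positive and 4 negative, where 22.2% of genes were positive and 18.6% negative. Of the genes called, 54.4% were positive, and 42.8% with voom. DERL3 again differed most, by 1.68 ± 0.11, followed by PDIA6 with 1.07 ± 0.061 and EDEM1 with -0.97 ± 0.065.

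**Figure D5:**
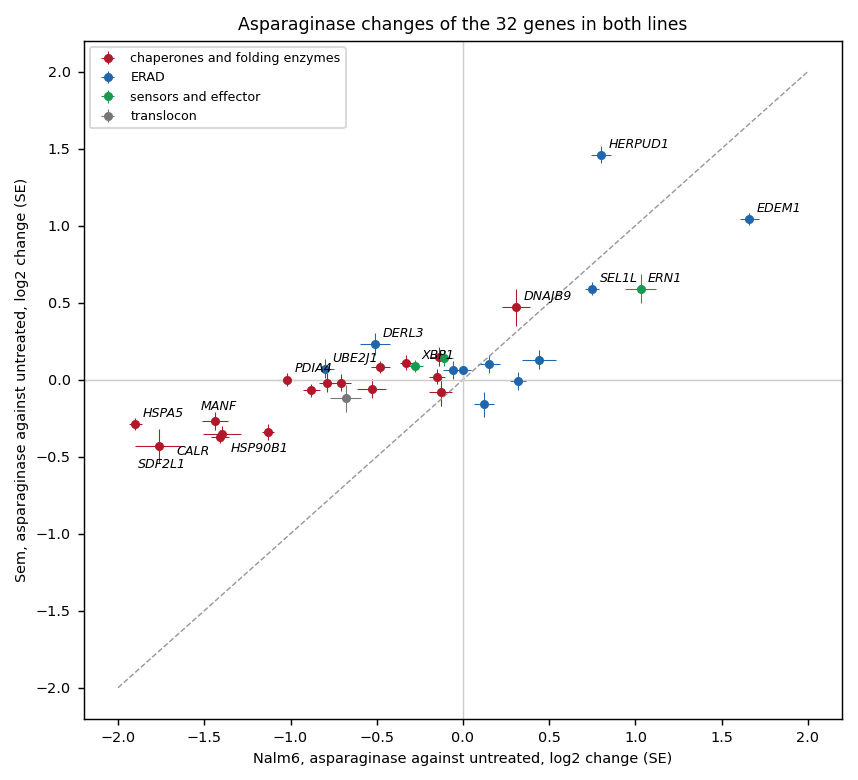
Log2 change of FPKM + 1 with asparaginase against untreated cells in Sem (y axis) and Nalm6 (x axis) for the 32 members, bars SE, coloured by role, with the line of equal change dashed. Most chaperones lie left of 0 for Nalm6 and above the dashed line, with HSPA5 at -0.29 in Sem and -1.90 in Nalm6.

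Other genes of the same compartment were counted from separate lists, and each count with asparaginase stands against 11.4% of all genes higher and 15.1% lower in Sem, and 28.2% higher and 28.1% lower in Nalm6. Of 11 measured genes of the PERK and ATF4 branch, 11 rose and 0 fell with asparaginase in Sem (median 1.18), and 11 rose and 0 fell in Nalm6 (median 1.74). CHAC1, which breaks down glutathione, rose by 3.24 ± 0.11 in Sem, and the pseudokinase TRIB3 by 2.83 ± 0.11 in Sem and by 2.86 ± 0.11 in Nalm6. DDIT3 (CHOP) rose by 2.54 ± 0.085 in Nalm6. With ibrutinib alone 2 genes of this branch rose and 3 fell in Sem (median 0.13), where 20.3% of all genes were higher and 21.3% lower. In Nalm6 8 rose and 0 fell with ibrutinib (median 0.38), where 4.99% of all genes were higher and 7.46% lower. With asparaginase the list of other UPR sensors, partners and proteases had 4 higher and 0 lower of 8 measured in Sem, and 5 higher and 1 lower of 9 in Nalm6. Not every gene on this list is itself a sensor or protease. Of the genes on it, CREB3L2, a membrane-bound factor cleaved like ATF6, rose by 0.42 ± 0.066 in Sem. In Nalm6 BHLHE40 rose by 1.31 ± 0.099 and CREBRF by 1.20 ± 0.11, while CREB3 fell by 0.36 ± 0.069.

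The other folding and glycan enzymes had 5 of 22 higher and 2 lower with asparaginase in Sem, and 5 higher and 5 lower in Nalm6, both below the Nalm6 shares of all genes. PPIB, an ER proline isomerase, fell by 0.23 ± 0.04 in Sem and by 1.16 ± 0.073 in Nalm6, and FKBP11, of another isomerase family, fell by 1.09 ± 0.073 in Nalm6. The membrane thioredoxin TMX4 rose by 0.28 ± 0.054 in Sem and by 0.87 ± 0.052 in Nalm6. Of 23 other ERAD genes 5 were higher and 5 lower in Sem, and 8 were higher and 9 lower in Nalm6. The mannosidase MAN1B1 rose by 0.30 ± 0.056 in Sem and by 0.99 ± 0.079 in Nalm6, while VCP, the ATPase that pulls substrates into the cytosol, fell by 0.22 ± 0.029 in Sem and by 0.67 ± 0.049 in Nalm6. Its cofactor UFD1 fell by 0.35 ± 0.045 in Sem and by 0.49 ± 0.056 in Nalm6. Of 17 translocon and signal peptidase genes 3 were higher and 0 lower in Sem, and 2 were higher and 10 lower in Nalm6, where SEC61G fell by 0.63 ± 0.079 and SEC63, the J-domain partner of the channel, rose by 0.38 ± 0.06. Of 17 genes of ER to Golgi transport 3 were higher and 3 lower in Sem, and 1 was higher and 13 lower in Nalm6, where the coat subunit SEC13 fell by 0.60 ± 0.068.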

How the data were processed

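The table holds gene-level FPKM of 24 libraries on hg38. Per the submitters' processing notes, the authors used fastp, STAR and featureCounts, with versions not given in the sources used here; strandedness is not given either. The deposited values are FPKM in which those of 1 or more had lost their decimal point. Each was restored as the power of 10 giving a whole number of reads (gene length times FPKM over the library's step, tolerance 0.0001), weighed by agreement with the other libraries; 384 of 1409640 values had a posterior under 0.99, none of a member. These posteriors favour small differences between groups. Values were taken as log2(FPKM + 1), kept where FPKM was 1 or more in 3 libraries, and fitted with limma 3.58.1 (trend; R 4.3.3), 12 libraries per line or 24 for line differences, adjusted by Benjamini-Hochberg over all genes tested. The members and lists were chosen with earlier results of these data known. Named genes are members described with their values, and beside them the called genes with the highest and lowest changes of each further list. The labels state no pairing of replicate numbers and the main fit held no replicate block, though some same-numbered Nalm6 libraries deviated together. Alternatives were pseudocount 0.1, no filter, TPM rescaling, quantile normalization, the replicate block, both lines in 1 fit and leaving out each library; added after seeing the data were voom on recovered reads, length and GC correction, and leaving out libraries that stood apart. Of the listed genes 1 was not matched.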

Additional observations from a re-analysis of the deposited data

Results flagged for a closer look

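The members listed here changed differently in Sem and Nalm6 by the test of the difference itself (limma over 24 libraries, adjusted p under 0.05). Values are the Sem change minus the Nalm6 change on the log2(FPKM + 1) scale, so a positive value means a higher change in Sem. None of the causes was tested. ERN1 passed the filter on low genes only through the asparaginase and combination groups where it is high, so its values below are a description.

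For the combination against untreated cells, 23 of 32 members differed, where 6160 of all 15116 genes tested did. Among the chaperones and folding enzymes these were HSPA5 (0.76), HSP90B1 (0.41), HYOU1 (0.19), SDF2L1 (0.81), CALR (0.63), CANX (0.23), PDIA3 (0.43), PDIA4 (0.60), PDIA6 (1.07), P4HB (0.25), MANF (0.46) and CRELD2 (0.57). Among the ERAD genes these were HERPUD1 (0.42), SEL1L (-0.24), EDEM1 (-0.97), EDEM3 (-0.33), DERL3 (1.68), OS9 (-0.33) and UBE2J1 (0.35). Among the sensors and effector these were XBP1 (0.17), ERN1 (-0.62) and ATF6 (0.23). For the translocon subunit the value was SEC61B (0.40). Under quantile normalization HYOU1 (0.07), CANX (0.09) and XBP1 (0.06) were not called, nor under TPM rescaling or with voom. P4HB (0.17) and ATF6 (0.16) were not called under TPM rescaling, and ATF6 (0.17) not with voom. CANX (0.23) and XBP1 (0.17) were not called with no filter, nor XBP1 (0.12) with the length and GC correction. CANX, XBP1 and SEC61B also lost the call on leaving out single libraries, at 0.17 to 0.23 for CANX, 0.13 to 0.16 for XBP1 and 0.29 to 0.36 for SEC61B. These libraries were Nalm6 untreated 2, Nalm6 combination 2 and 3, Sem untreated 1 and Sem combination 2 and 3 for CANX. They were Nalm6 untreated 3, Nalm6 combination 2, Sem untreated 1 and 2 and Sem combination 3 for XBP1, and Nalm6 untreated 2, Sem untreated 2 and Sem combination 2 for SEC61B. HYOU1 (0.17) and SEC61B (0.33) were not called without the libraries that stand apart.

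For asparaginase against untreated cells, 26 of 32 members differed, where 5061 of all 15116 genes tested did. Among the chaperones and folding enzymes these were HSPA5 (1.61), HSP90B1 (1.04), HYOU1 (0.43), DNAJB11 (0.47), DNAJC3 (0.28), SDF2L1 (1.33), CALR (1.04), CANX (0.68), PDIA3 (0.79), PDIA4 (1.02), PDIA6 (0.81), P4HB (0.55), ERO1A (0.18), MANF (1.17) and CRELD2 (0.77). Among the ERAD genes these were HERPUD1 (0.66), SEL1L (-0.16), EDEM1 (-0.62), EDEM2 (-0.28), DERL3 (0.74), OS9 (-0.32) and UBE2J1 (0.87). Among the sensors and effector these were XBP1 (0.37), ERN1 (-0.44) and ATF6 (0.25). For the translocon subunit the value was SEC61B (0.57). ERO1A was not called under TPM rescaling (0.11), quantile normalization (0.08) or with voom (0.10), with no filter (0.18) or with the length and GC correction (0.15). EDEM2 (-0.28) was not called with no filter, nor SEL1L (-0.15) with a pseudocount of 0.1. ERN1 was not called under quantile normalization (-0.26), nor DNAJC3 (0.24) and ATF6 (0.20) with voom. ERO1A, EDEM2 and SEL1L lost the call on leaving out single libraries, at 0.13 to 0.18 for ERO1A, -0.29 to -0.26 for EDEM2 and -0.15 to -0.11 for SEL1L. For ERO1A these were Nalm6 untreated 1, 2 and 3, Nalm6 asparaginase 1 and 2, Sem untreated 1 and 3 and Sem asparaginase 1 and 3. For EDEM2 they were Nalm6 untreated 2 and 3, Sem untreated 2 and each asparaginase library of both lines. For SEL1L they were Nalm6 untreated 2 and 3, Nalm6 asparaginase 1, Sem untreated 2 and Sem asparaginase 2. ERO1A (0.18), EDEM2 (-0.29), SEL1L (-0.13) and DNAJC3 (0.26) were not called without the libraries that stand apart.

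For ibrutinib against untreated cells, 8 of 32 members differed, where 2064 of all 15116 genes tested did. Among the chaperones and folding enzymes these were HSPA5 (-0.19), PDIA6 (0.22), ERO1B (0.40) and MANF (-0.31). Among the ERAD genes these were SYVN1 (0.45), EDEM1 (-0.39) and DERL3 (0.96). Among the sensors and effector this was XBP1 (-0.25). HSPA5 (-0.07) and ERO1B (0.32) were not called under quantile normalization, nor XBP1 (-0.22) and MANF (-0.27) with the length and GC correction. MANF, ERO1B, PDIA6 and SYVN1 lost the call on leaving out single libraries, at -0.33 to -0.27 for MANF, 0.31 to 0.35 for ERO1B, 0.18 to 0.21 for PDIA6 and 0.37 to 0.42 for SYVN1. For MANF these were untreated 1 and 3 of both lines, Nalm6 ibrutinib 1 and 3 and Sem ibrutinib 1 and 2, and for ERO1B Nalm6 ibrutinib 2, Sem untreated 2 and Sem ibrutinib 1. For PDIA6 they were untreated 2 of both lines, Nalm6 ibrutinib 2 and Sem ibrutinib 3, and for SYVN1 Nalm6 untreated 1, Nalm6 ibrutinib 3 and Sem untreated 1. MANF was not called with no filter (-0.31), nor ERO1B without the libraries that stand apart (0.29).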

How the results depend on the processing

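Of the counts of members called, these moved by over 1.5 times. For ibrutinib in Nalm6 the count was 9, against 4 under quantile normalization, 15 without the libraries that stand apart, and 5 to 13 leaving out 1 library. For the combination against asparaginase in Nalm6 it was 18, and 11 to 18 leaving out 1 library. For the interaction it was 9 in Nalm6, against 14 with the length and GC correction, and 1 in Sem, against 3 under TPM rescaling, 4 with voom on recovered reads, 2 with both lines in 1 fit, and 1 to 4 leaving out 1 library. For asparaginase in Sem it was 12, against 20 under TPM rescaling. For the combination against ibrutinib in Sem it was 10, and 5 to 11 leaving out 1 library. The causes were not tested.

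Changes that turned sign under TPM rescaling were, in Nalm6, DNAJC3 (0.00) and DERL1 (0.14) with asparaginase and DERL2 (0.13) and ATF6 (0.01) with the combination. Under quantile normalization they were XBP1 with asparaginase in Nalm6 (0.05), PDIA4 (0.05) and PDIA6 (0.05) with ibrutinib in Sem, PDIA6 with asparaginase in Sem (0.11), and CANX (0.03), PDIA4 (0.06), PDIA6 (0.10), P4HB (0.09) and XBP1 (0.04) with the combination in Sem. TPM rescaling moved the median of all genes to 0.14 for asparaginase and 0.16 for the combination in Nalm6, and to 0.07 and 0.10 in Sem.

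Same-numbered libraries mostly did not deviate together, with a median correlation of their deviations of 0.015 in Nalm6 and 0.035 in Sem. Some pairs did in Nalm6, where 5 of 18 were over 0.1 and the highest was 0.378. In Sem 1 of 18 was over 0.1, at 0.103. With the replicate block the members called numbered 8, 26 and 29 for ibrutinib, asparaginase and the combination in Nalm6, and 23, 13 and 27 in Sem. Over all genes, ibrutinib in Nalm6 gave 1647 calls, against 1056 with no filter, 854 under quantile normalization, 2798 with the length and GC correction, 2508 with both lines in 1 fit and 3338 without the libraries that stand apart. The Nalm6 interaction gave 739, against 1638, 1360 and 1600 under the last 3 of these. The Sem interaction gave 206, against 136 with no filter, 437 under TPM rescaling, 651 with voom and 98 without the libraries that stand apart. The planned edgeR fit was not run, although reads were recovered from the deposited FPKM, and voom was run on those reads in its place. At this depth the lowest member, ERN1, rests on 85 to 766 reads in a library.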
